A study of Homo sapiens with 12 samples.

Results

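The aryl hydrocarbon receptor (AHR) pathway and drug-metabolizing enzymes were followed as 10 genes, AHR, AHRR, CYP1A1, CYP1B1, TIPARP, CYP3A5, UGT1A6, ALDH1A1, ALDH1A3 and ALDH3A1, matched by symbol to the gene identifiers of the count files, which hold 58051 genes. All 10 were found, and 9 had enough counts to be tested, with CYP3A5 below edgeR's filter on low counts. Poly(A) RNA was sequenced from 2 head and neck squamous carcinoma lines, FaDu (hypopharynx) and Cal27 (tongue), as parental cells, afatinib-resistant cells (AfaR) and erlotinib-resistant cells (ErlR), with 2 libraries per group and 12 in all. Afatinib is an irreversible inhibitor of the ERBB receptor family and erlotinib a reversible inhibitor of EGFR. Each resistant model was 1 population grown out under stepwise rising drug, and drug was withdrawn for 24 h before experiments. All groups carried the same wild-type genotype label and the same batch label. FaDu cells were kept in EMEM and Cal27 cells in DMEM, so the medium and the line cannot be told apart. The labels call the 2 libraries of a group biological replicates without naming separate cultures, so the p-values measure the spread between these libraries.

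AHR is a transcription factor held in the cytoplasm by HSP90 and PTGES3 until a ligand binds, such as a planar aromatic pollutant or a tryptophan metabolite of the kynurenine route. It then pairs with ARNT on DNA elements with the core GCGTG and switches on CYP1A1, CYP1B1, AHRR and TIPARP, of which the last 2 encode proteins that restrain AHR. In epithelia of the upper aerodigestive tract the pathway is known for its response to tobacco smoke. CYP3A5, UGT1A6 and the aldehyde dehydrogenases ALDH1A1, ALDH1A3 and ALDH3A1 act on drugs, phenols, retinal and reactive aldehydes, and UGT1A6 and ALDH3A1 are also classical AHR-responsive genes. Erlotinib is oxidized mainly by CYP3A4 and to a lesser degree by the CYP1A enzymes, whereas afatinib is little metabolized by cytochromes P450.

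Promoter sequences are shown for 3 direct AHR targets whose levels changed. They were taken from RefSeq (GRCh38.p14), run 5′ to 3′ on the gene's strand from 250 bases before the annotated start to 50 after it, and carry each GCGTG, or its complement CACGC, in capitals. The windows are chr5:321464-321763 (+ strand) for AHRR, chr15:74725479-74725778 (- strand) for CYP1A1 and chr3:156674340-156674639 (+ strand) for TIPARP, the one of 3 listed TIPARP starts that held the core.
AHRR: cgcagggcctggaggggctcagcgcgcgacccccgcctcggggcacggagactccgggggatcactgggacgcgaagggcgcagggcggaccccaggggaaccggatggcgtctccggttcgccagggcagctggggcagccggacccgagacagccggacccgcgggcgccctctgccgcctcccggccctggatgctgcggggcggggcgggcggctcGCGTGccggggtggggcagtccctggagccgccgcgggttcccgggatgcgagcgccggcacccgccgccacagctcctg
CYP1A1: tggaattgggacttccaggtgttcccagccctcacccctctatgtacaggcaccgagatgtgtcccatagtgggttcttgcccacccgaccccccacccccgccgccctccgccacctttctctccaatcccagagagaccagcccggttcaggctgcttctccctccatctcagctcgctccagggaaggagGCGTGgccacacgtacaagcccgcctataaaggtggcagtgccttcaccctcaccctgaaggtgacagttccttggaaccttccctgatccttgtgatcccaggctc
TIPARP: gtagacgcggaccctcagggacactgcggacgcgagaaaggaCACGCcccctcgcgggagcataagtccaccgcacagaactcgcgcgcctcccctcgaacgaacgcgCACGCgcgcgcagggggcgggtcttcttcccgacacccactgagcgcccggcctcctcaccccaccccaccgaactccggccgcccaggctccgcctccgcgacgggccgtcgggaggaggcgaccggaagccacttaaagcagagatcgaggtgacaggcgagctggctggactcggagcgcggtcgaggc
The AHRR window, at the first of 2 listed AHRR starts, held the core once, beginning 30 bases before the start (the window of the other start held it 2 times, 247 and 42 bases before that start), the CYP1A1 window once, 57 bases before it, and the TIPARP window 2 times, 208 and 142 bases before it. The core occurred on either strand in 36.5% of 35116 promoter windows of this length and at least 2 times in 12.7%, so its presence in a window is common. Of the other members, AHR had 1 match, ALDH1A3 had 2, UGT1A6 had 1 in one of 2 windows, and CYP3A5 and ALDH1A1 had 0. CYP1B1 and ALDH3A1 were not in the table.

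Libraries held from 16334937 to 23399259 counts on genes, and levels are given as CPM, the count relative to the library size after TMM scaling over the 12 libraries. By Pearson correlation of log2(CPM + 1), the closest library to each of the 12 was the other library of its own group. All 9 squamous epithelial markers were detected, and DCN and PDGFRA, of the 5 fibroblast markers, stayed under 1 CPM in every library. Cal27 AfaR stood apart, with 8 of 9 squamous markers called lower, where 19.6% of all genes were called. Its summed squamous level was 882 to 984 CPM against 3927 to 5064 CPM in Cal27 parental cells. Its summed fibroblast marker level was 283 to 289 CPM against 28.95 to 39.96 CPM, nearly all of it COL1A1. In Cal27 ErlR 13.5% of all genes were called, and 1515 of those 2059 were lower. It had 3 of 9 squamous markers called lower and 0 higher, with a list median of -0.14 on the log2 scale and a sum of 4930 to 4963 CPM. KRT5, KRT6A, TP63 and SFN had higher means there than in Cal27 parental cells, and the other squamous markers lower means. All 3 tested fibroblast markers were called lower in Cal27 ErlR (COL1A1 -2.41, PDGFRB -2.39 and COL1A2 -1.51), with a sum of 4.28 to 9.655 CPM. The endothelial marker CDH5 was also lower there (-3.55). The endothelial markers summed to 2.49 to 6.05 CPM against 31.7 to 32.7 CPM in Cal27 parental cells, where nearly all of the sum was CDH5. Of the others, PECAM1 averaged 1.53 CPM in Cal27 ErlR against 1.31 CPM in parental cells, and VWF 0.122 against 0.350 CPM. Of 4 hepatocyte markers only SERPINA1 reached 1 CPM in any library, and it was called in each model, higher in FaDu (1.305 for AfaR and 1.45 for ErlR) and lower in Cal27 (-1.25 for AfaR and -2.71 for ErlR). The part of these shifts in the results for the members was not tested. In bulk RNA of a cell line, fewer cells that express a gene and less RNA per cell cannot be told apart.

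A gene was called where edgeR's quasi-likelihood test gave a Benjamini-Hochberg adjusted p under 0.05 over all genes tested and the log2 fold change exceeded 1 in size. In FaDu AfaR, CYP1A1 and CYP1B1 were called higher than in parental cells, 2 of the 9 tested members, where 7.43% of all tested genes were called. FaDu ErlR had 2 members called higher, AHRR and TIPARP, against 2.05% of all genes. In Cal27 AfaR, AHRR and CYP1B1 were called higher and ALDH1A3 lower, 3 of 9 against 19.6%. Cal27 ErlR, where 1515 of 2059 called genes were lower, had 4 of 9 called against 13.5%, all lower, namely AHRR, CYP1B1, ALDH1A3 and ALDH3A1. The median log2 fold change of the 9 members was 0.64 for AfaR and 0.35 for ErlR cells of FaDu, and 0.56 for AfaR and -1.30 for ErlR cells of Cal27, while the median over all tested genes lay between -0.03 and 0.00 in these models. The AfaR and ErlR comparisons of a line share its parental libraries.

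**Figure D1:**
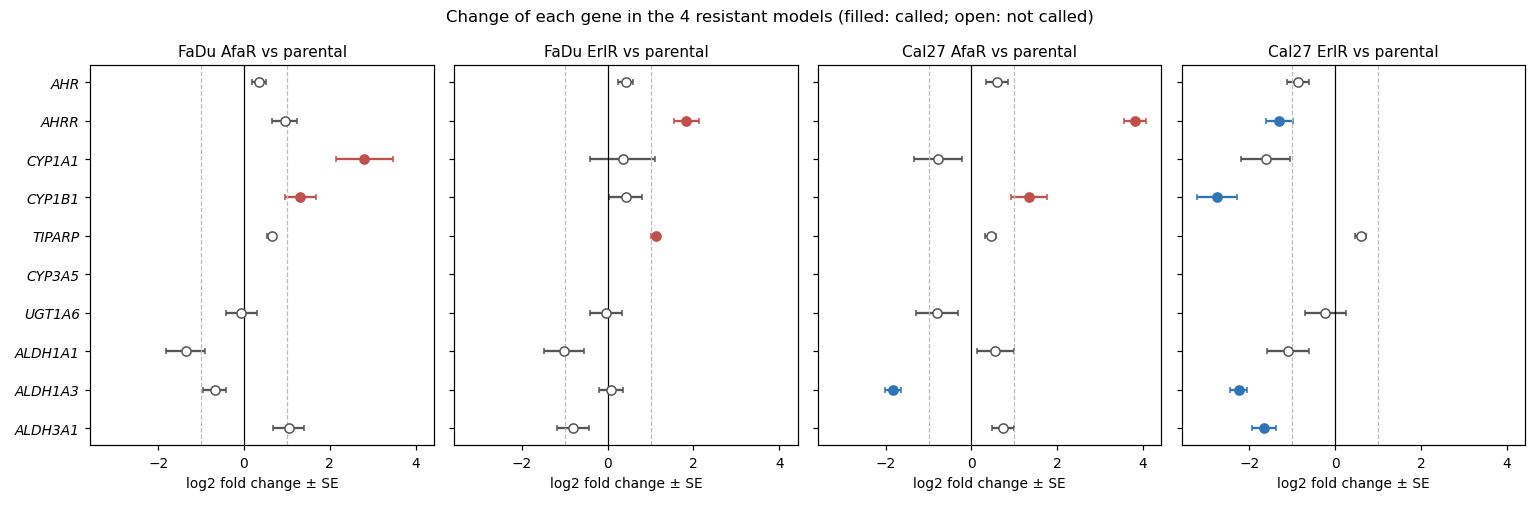
Log2 fold change against the parental cells of the same line (x axis) for each gene in the 4 resistant models, with 2 libraries per group. Bars are the standard error, taken as the size of the log2 fold change over the square root of edgeR's quasi-likelihood F. Filled symbols mark called genes, and dashed lines mark the fold limit of 1. Cal27 ErlR has 4 called genes on the lower side, TIPARP lies right of 0 in all 4 panels, and CYP3A5 was not tested.

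AHR itself was called in none of the 4 models. FaDu parental cells had 12.6 and 12.0 CPM, FaDu AfaR 14.9 and 16.8 CPM and FaDu ErlR 14.9 and 18.3 CPM. Both resistant groups lay above the parental libraries without passing the test, with log2 fold changes of 0.35 and 0.42 (adjusted p = 0.171 and 0.195, edgeR). In Cal27 the level was several-fold higher, with 67.0 and 114 CPM in parental cells, 164 and 108 CPM in AfaR and 51.6 and 49.9 CPM in ErlR. The AfaR libraries overlapped the parental range (log2 fold change 0.59, standard error 0.26, adjusted p = 0.101), and the ErlR libraries lay below it (-0.86, standard error 0.26, adjusted p = 0.0356), short of the fold limit. Without Cal27 parental replicate 1, the ErlR change was -1.18 and was called, and without parental replicate 2 the AfaR change was 1.02 and was called. Of the exon bases of AHR in the files (ENSG00000106546, GRCh38 chromosome 7, 17298622 to 17346152, + strand), 39.2% also belong to other genes. The gene sharing most of them, ENSG00000283321, was listed at 0 in every library. How reads on shared bases were counted is not given, so the level of AHR is uncertain.

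AHRR, the AHR repressor that competes for ARNT, had the widest range of changes among the members. In FaDu, parental libraries had 2.67 and 4.47 CPM, AfaR 7.28 and 6.71 CPM and ErlR 10.7 and 15.0 CPM. The 3 FaDu groups did not overlap, and the ErlR difference was called (log2 fold change 1.84, standard error 0.29, adjusted p = 0.0168), whereas AfaR lay just outside both limits (0.95, adjusted p = 0.0524). In Cal27, parental libraries had 2.155 and 2.86 CPM, AfaR 38.0 and 32.7 CPM and ErlR 1.28 and 0.794 CPM. AHRR thus rose by 3.82 on the log2 scale in Cal27 AfaR (standard error 0.25, adjusted p = 8.74e-06) and fell by 1.30 in Cal27 ErlR (standard error 0.31, adjusted p = 0.0148), again with no overlap between groups. The effect of erlotinib resistance differed between the lines by 3.12 on the log2 scale (FaDu minus Cal27, adjusted p = 0.00107), and that of afatinib resistance by -2.84 (adjusted p = 0.000435), both as interaction terms. The FaDu ErlR call was lost without FaDu parental replicate 1 (1.51, adjusted p = 0.0956) or ErlR replicate 2 (1.57, adjusted p = 0.0861), and the Cal27 ErlR call without Cal27 parental replicate 2 (-1.065, adjusted p = 0.0840) or ErlR replicate 2 (-0.96, adjusted p = 0.0788). With upper-quartile scaling, AHRR was also called in FaDu AfaR (1.02, adjusted p = 0.0450), and so it was without FaDu parental replicate 2 (1.36, adjusted p = 0.0492). AHRR (ENSG00000063438, chromosome 5, 304176 to 438291 in the files) shares 3.18% of its exon bases with PDCD6.

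TIPARP, also called PARP7, encodes a mono-ADP-ribosyltransferase that modifies AHR and promotes its degradation. FaDu parental libraries had 52.6 and 55.3 CPM, AfaR 87.4 and 83.35 CPM and ErlR 115.5 and 121 CPM. Cal27 parental libraries had 186 and 191 CPM, AfaR 262 and 255 CPM and ErlR 311 and 268 CPM. In each line both resistant groups lay above the parental libraries and none of the 6 groups overlapped. TIPARP passed the adjusted p limit in each of the 4 models, with a log2 fold change of 0.64 for the AfaR cells (standard error 0.11, adjusted p = 0.00717) and 1.12 for the ErlR cells of FaDu (standard error 0.11, adjusted p = 0.00402). In Cal27 it was 0.45 for AfaR (standard error 0.13, adjusted p = 0.0209) and 0.59 for ErlR (standard error 0.13, adjusted p = 0.00921). With no limit on the fold change, 17.9%, 4.18%, 37.6% and 27.6% of all genes passed in these 4 models in the same order. Only the FaDu ErlR change exceeded the fold limit, and this call was kept under every alternative setting and without any 1 library. In Cal27 ErlR, where AHRR and CYP1B1 fell, TIPARP rose. The interaction for erlotinib resistance was 0.52 (adjusted p = 0.0326), below the fold limit.

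**Figure D2:**
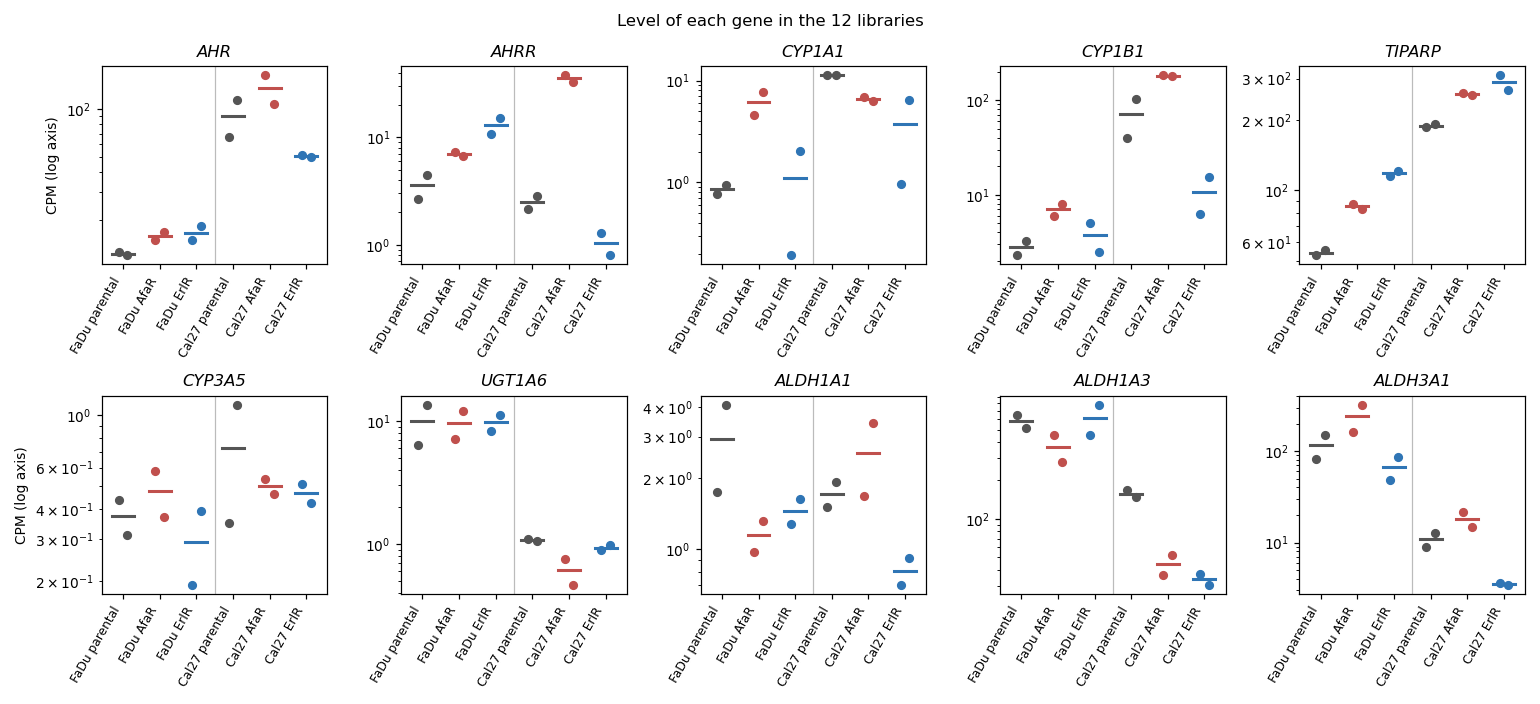
TMM-scaled CPM (log axis, own range in each panel) of the 10 genes in the 6 groups, with 1 point per library and a bar at the mean of the 2 libraries. TIPARP is higher in resistant than in parental cells of both lines. Among the Cal27 groups, AHRR and CYP1B1 are highest in AfaR and lowest in ErlR.

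CYP1A1 encodes the monooxygenase that oxidizes polycyclic aromatic hydrocarbons, and its induction is the standard readout of ligand-bound AHR. Its counts were low in FaDu, where parental libraries had 16 and 18 counts (0.777 and 0.936 CPM), AfaR 94 and 186 counts (4.56 and 7.65 CPM) and ErlR 3 and 31 counts (0.192 and 2.03 CPM). Both AfaR libraries lay above all other FaDu libraries, and the rise against parental cells was 2.81 on the log2 scale (standard error 0.67, adjusted p = 0.02345). This call was lost without FaDu parental replicate 1 (2.67, adjusted p = 0.1485), parental replicate 2 (2.94, adjusted p = 0.0854) or AfaR replicate 2 (2.39, adjusted p = 0.124). In Cal27, parental libraries had 11.4 and 11.3 CPM, AfaR 6.91 and 6.27 CPM and ErlR 0.958 and 6.48 CPM. Every resistant Cal27 library lay below the parental libraries, but neither change was called, with -0.78 in AfaR (adjusted p = 0.297) and -1.62 in ErlR (adjusted p = 0.0648). The ErlR value rested on replicate 1, since without ErlR replicate 2 the change was -3.545 and was called. The replicate block fit called it at -1.803 (adjusted p = 0.0431), and the fit with no filter on low counts at -1.605. The AfaR effect on CYP1A1 differed between the lines by 3.61 on the log2 scale (FaDu minus Cal27, adjusted p = 0.02605), a call that DESeq2 did not make (3.59, adjusted p = 0.0681).

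CYP1B1 encodes a related monooxygenase that also hydroxylates estradiol. In FaDu, parental libraries had 2.28 and 3.275 CPM, AfaR 5.92 and 8.06 CPM and ErlR 4.99 and 2.485 CPM. The AfaR libraries lay above the others (log2 fold change 1.31, standard error 0.37, adjusted p = 0.0382), and the ErlR libraries overlapped the parental range. In Cal27, parental libraries had 39.7 and 103 CPM, AfaR 185 and 178.5 CPM and ErlR 6.26 and 15.2 CPM. No Cal27 group overlapped another, with a rise of 1.35 in AfaR (standard error 0.42, adjusted p = 0.0308) and a fall of 2.75 in ErlR (adjusted p = 0.00283). The erlotinib effects differed between the lines by 3.16 (adjusted p = 0.0103), while the afatinib effects differed by -0.01 (standard error 0.79, adjusted p = 1.00). The FaDu AfaR call was lost with a replicate block (adjusted p = 0.0555), in the fit of all 12 libraries (adjusted p = 0.0964), and without parental replicate 1 (1.07), parental replicate 2 (1.59) or AfaR replicate 2 (1.08). The Cal27 AfaR call was lost with DESeq2 (adjusted p = 0.1225), without Cal27 parental replicate 1 (0.83) and without either AfaR library (1.325 and 1.39). The Cal27 ErlR call was kept under every alternative. CYP1B1 shares 13.02% of its exon bases with other genes, mainly the antisense CYP1B1-AS1, which did not exceed 4.86 CPM in any library.

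Of 10 genes of the AHR complex, all tested, 1 was called higher in FaDu AfaR (7.43% of all genes were called), 2 in Cal27 AfaR (19.6%) and 0 in the ErlR models (2.05% in FaDu and 13.5% in Cal27), with 0 lower in any, which is near the shares over all genes. ARNT, the obligate partner, ranged from 25.4 to 51.4 CPM over the 12 libraries. Its homologue ARNT2 rose in FaDu AfaR from 1.67 ± 0.36 to 7.47 ± 0.48 CPM (SD, n = 2; log2 fold change 2.15, adjusted p = 0.00359) and in Cal27 AfaR from 1.60 ± 0.37 to 29.8 ± 2.51 CPM (4.21, adjusted p = 2.5e-05). NCOA1, a coactivator, rose in Cal27 AfaR by 1.14. Among 12 other AHR-responsive genes, 11 tested, Cal27 AfaR had 3 higher and 1 lower, Cal27 ErlR 1 and 0, and FaDu AfaR 1 of each, while FaDu ErlR had 0 in both directions, beside 19.6%, 13.5%, 7.43% and 2.05% of all genes called in these models in the same order. NQO1, a quinone reductase that NRF2 also induces, rose in Cal27 AfaR from 123 ± 5.89 to 295 ± 73.9 CPM (1.26, adjusted p = 0.000594). The drug efflux pump ABCG2 rose in both Cal27 models, by 2.01 in AfaR (adjusted p = 0.00607) and 1.46 in ErlR (adjusted p = 0.0362). IL6 rose in FaDu AfaR by 2.57, from 0.305 ± 0.157 to 1.84 ± 0.95 CPM, and in Cal27 AfaR by 2.499, from 37.7 ± 13.7 to 213 ± 2.32 CPM. The ErbB ligand gene EREG fell in FaDu AfaR (log2 fold change -1.796), and SERPINB2 fell by 4.83 in Cal27 AfaR. CYP1A2, the hepatic partner of CYP1A1, did not exceed 0.216 CPM in any library.

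Some enzymes of the kynurenine route make AHR ligands from tryptophan, and the level of such ligands was not measured here. In Cal27 ErlR 4 of 8 tested genes were lower and 0 higher, where 13.5% of all genes were called and 1515 of those 2059 were lower, and the list median was -1.775 against -0.03 for all genes. KYNU, the kynureninase, fell from 266 ± 75.7 to 57.9 ± 16.1 CPM (SD, n = 2; log2 fold change -2.23, adjusted p = 0.000329). KMO (-2.48), KYAT1 (-1.96) and the ligand-forming amino acid oxidase IL4I1 (-1.91) were the other 3. Cal27 AfaR had 1 higher and 2 lower of 8, the lower ones being KMO (-1.475) and AFMID (-1.002), where 19.6% of all genes were called. Both FaDu models had 0 of 7 called, beside 7.43% of all genes in AfaR and 2.05% in ErlR. IDO1, an inducible enzyme that opens the route, lay between 0 and 20.1 CPM and varied widely within groups, with 3.95 ± 5.52 CPM in FaDu parental and 14.5 ± 7.97 CPM in Cal27 parental cells.

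CYP3A5, the drug-oxidizing P450 of the CYP3A family most often seen outside the liver, was close to the detection limit. Its libraries held between 3 and 19 counts, 0.192 to 1.11 CPM, and the ranges of neighbouring groups overlapped throughout, so a difference was not detectable at this depth. CYP3A4 had at most 0.0411 CPM in any library and CYP3A7 at most 0.0540 CPM. Of 44 other phase I genes, 20 were tested in each line. FaDu AfaR had 5 of them higher and 0 lower, where 7.43% of all genes were called and 978 of those 1122 were higher, and Cal27 AfaR had 5 higher and 3 lower, where 19.6% were called. The ErlR cells had 1 of each in FaDu, and 2 higher and 4 lower in Cal27, beside 2.05% and 13.5% of all genes called. EPHX2, a soluble epoxide hydrolase, rose in FaDu AfaR by 2.16 and fell by 2.496 in Cal27 ErlR, and CYP2J2 rose in FaDu AfaR by 1.56. The vitamin D hydroxylase gene CYP24A1 fell in both Cal27 models (-4.95 in AfaR and -4.47 in ErlR) and in FaDu ErlR (-2.22), though its Cal27 parental libraries varied widely (50.9 ± 50.5 CPM). POR, the reductase that supplies electrons to microsomal P450s, ranged from 45.5 to 102 CPM. Of the 10 xenobiotic and lipid receptors, PXR (NR1I2) did not exceed 0.117 CPM, and 1 of 6 tested genes was called higher in FaDu ErlR and in Cal27 AfaR, PPARG in each (1.02 and 2.065), with 2 lower in Cal27 ErlR and 0 in FaDu AfaR.

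UGT1A6 encodes a glucuronosyltransferase for small phenols. FaDu parental libraries had 6.36 and 13.6 CPM, AfaR 7.18 and 12.1 CPM and ErlR 8.38 and 11.25 CPM, which overlapped. Cal27 parental libraries had 1.11 and 1.05 CPM, AfaR 0.756 and 0.464 CPM and ErlR 0.894 and 0.978 CPM, at 8 to 19 counts per library. UGT1A6 was called in none of the 4 models (log2 fold changes from -0.81 to -0.04), and 64.4% of its exon bases are shared with other genes of the UGT1A locus, so its level is uncertain. Of the 20 other UGT genes only UGT8, a ceramide galactosyltransferase rather than a drug-metabolizing enzyme, was tested. It rose in Cal27 AfaR (2.06) and in both FaDu models (1.37 in AfaR and 1.04 in ErlR), and fell in Cal27 ErlR from 4.84 ± 0.0877 to 0.0958 ± 0.136 CPM, with 0 counts in 1 library. Of 28 other conjugating enzymes, Cal27 ErlR had 6 of 18 tested lower and 0 higher, where 13.5% of all genes were called and most of those were lower, among them GSTM3 (-3.58), GSTM4 (-1.525) and SULT1A1 (-1.37). FaDu AfaR had 2 of 16 higher (7.43% of all genes called), FaDu ErlR 0 (2.05%), and Cal27 AfaR 1 higher and 1 lower of 18 (19.6%), the latter GSTP1 (-1.02).

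ALDH1A3 makes retinoic acid from retinal and carries much of the ALDH activity used to mark tumour-initiating cells. In FaDu, parental libraries had 649 and 514.5 CPM, AfaR 455.5 and 279 CPM and ErlR 453 and 784 CPM. AfaR lay below parental cells (log2 fold change -0.68, adjusted p = 0.112) without passing the test, and ErlR overlapped them (0.08, adjusted p = 0.911). In Cal27, parental libraries had 168 and 147 CPM, AfaR 36.3 and 51.8 CPM and ErlR 37.05 and 30.3 CPM. Both differences were called, at -1.84 in AfaR (standard error 0.19, adjusted p = 9.77e-05) and -2.25 in ErlR (standard error 0.19, adjusted p = 0.000102), and both calls were kept under every alternative and without any 1 library. The erlotinib effect differed between the lines by 2.31 (adjusted p = 0.00222), and the afatinib effect by 1.17 (adjusted p = 0.0515, 0.0146 with DESeq2). Without FaDu AfaR replicate 1 a fall in FaDu AfaR was also called (-1.09, adjusted p = 0.04305). Of its exon bases 28.55% are shared, nearly all with the antisense ALDH1A3-AS1, which stayed between 2.17 and 4.84 CPM.

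ALDH3A1 detoxifies aldehydes from lipid peroxidation and is strongly expressed in squamous and corneal epithelium. In FaDu, parental libraries had 82.8 and 149 CPM, AfaR 160.0 and 323 CPM and ErlR 48.5 and 85.4 CPM. The AfaR libraries lay above the parental ones and the ErlR libraries overlapped them, and neither change was called (1.04 in AfaR, adjusted p = 0.0796, and -0.80 in ErlR, adjusted p = 0.255). The AfaR change was called with a replicate block (1.02, adjusted p = 0.00308), with no filter on low counts (1.05) and without AfaR replicate 1 (1.45, adjusted p = 0.0319). In Cal27, parental libraries had 9.03 and 12.8 CPM, AfaR 21.55 and 14.9 CPM and ErlR 3.64 and 3.42 CPM. ErlR fell by 1.65 (standard error 0.28, adjusted p = 0.00278), a call kept under every alternative, and AfaR rose by 0.74 (adjusted p = 0.0429), below the fold limit. ALDH1A1, the other retinal dehydrogenase among the members, was low in every group. Its libraries ranged from 0.703 to 4.11 CPM, and it was called in none of the models. The log2 fold change was -1.36 in FaDu AfaR (adjusted p = 0.0685) and -1.10 in Cal27 ErlR (adjusted p = 0.126). In FaDu ErlR and Cal27 AfaR it was -1.01 and 0.56. With no filter on low counts the fall in FaDu AfaR was called (-1.35, adjusted p = 0.0081). The afatinib effect differed between the lines by -1.90 (adjusted p = 0.066), called with no filter (-1.88) and with a replicate block (-1.80).

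The remaining ALDH genes and the retinoid pathway were counted in the same way. In Cal27 ErlR, where 13.5% of all genes were called and 1515 of those 2059 were lower, 7 of 14 tested ALDH genes were called lower and 0 higher, with a list median of -1.065, among them ALDH6A1 (-1.801) and ALDH5A1 (-1.76), which act on amino acid catabolites and succinic semialdehyde. Of 19 tested retinoid genes 8 were lower and 1 higher. The retinoid-responsive genes RARRES1 (-5.88) and PLAAT4 (-3.33) and the retinol transporter gene STRA6 (-2.33) were among the lower ones, and the parental libraries of RARRES1 varied widely (27.6 ± 33.8 CPM). In Cal27 AfaR, where 19.6% of all genes were called, the counts were 1 higher and 2 lower for ALDH genes and 2 higher and 3 lower for retinoid genes, with ALDH3B1 up by 2.15 and TGM2 down by 2.32. FaDu AfaR had 2 ALDH genes higher, ALDH1L2 (4.18) and ALDH6A1 (1.05), and 3 retinoid genes higher and 1 lower, CYP26B1 (-1.84), which degrades retinoic acid. FaDu ErlR had 0 called in both lists, and the shares of all genes called were 7.43% in FaDu AfaR and 2.05% in FaDu ErlR. These lists were written with earlier results of these data known, and their counts are descriptions.

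**Figure D3:**
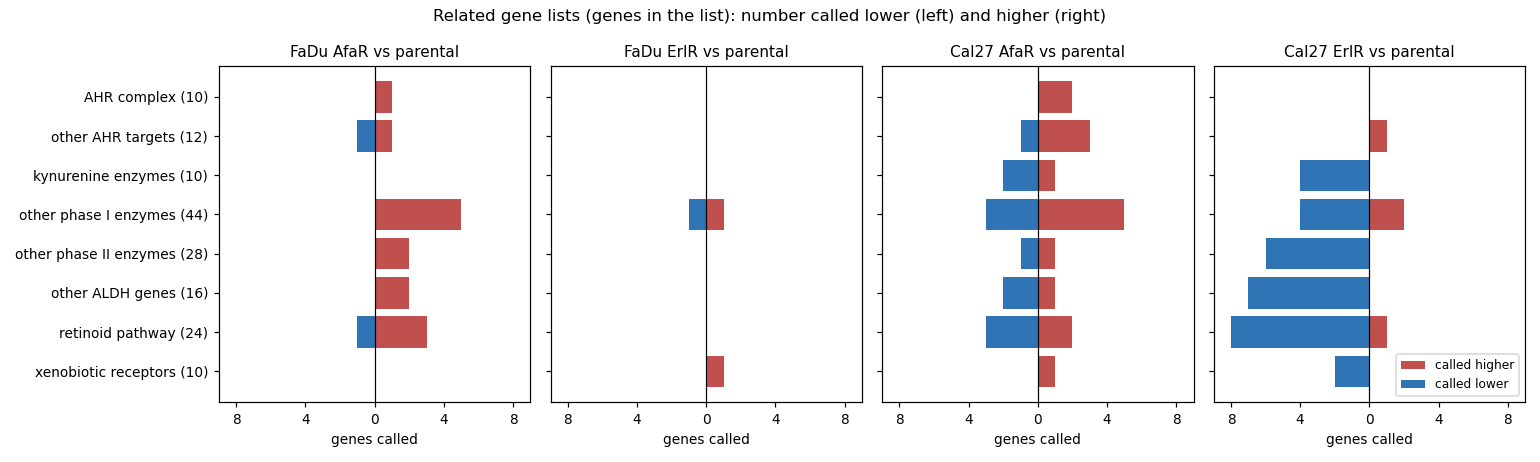
Number of genes called lower (left of 0) and higher (right of 0) against parental cells in 8 related gene lists, for the 4 resistant models, with the size of each list in parentheses. In Cal27 ErlR 13.5% of all genes were called, and 1515 of those 2059 were lower. There the calls for kynurenine enzymes, phase II enzymes, other ALDH genes and xenobiotic receptors are all lower, with 4, 6, 7 and 2 genes.

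The 2 resistant models of a line were also compared with each other. In FaDu, CYP1A1 (2.46, adjusted p = 0.0375) and ALDH3A1 (1.84, adjusted p = 0.0142) were called higher in AfaR than in ErlR, 2 of 9 members against 5.94% of all genes. The CYP1A1 call was lost in the fit of 12 libraries (adjusted p = 0.0508), without AfaR replicate 2 (2.04) and without ErlR replicate 1 (1.59), and the ALDH3A1 call without AfaR replicate 2 (1.26, adjusted p = 0.0891) or ErlR replicate 1 (adjusted p = 0.06325). Between the Cal27 models 27.1% of all genes were called, 2782 of those 4135 higher in AfaR. Of the 9 members 5 were called, all higher in AfaR. These were AHR (1.45, adjusted p = 0.00163), AHRR (5.115, adjusted p = 2.47e-06), CYP1B1 (4.10, adjusted p = 0.000151), ALDH1A1 (1.665, adjusted p = 0.0170) and ALDH3A1 (2.39, adjusted p = 0.000135). The ALDH1A1 call was lost without AfaR replicate 2 (1.07) or ErlR replicate 1 (1.48). TIPARP differed by -0.14 between the Cal27 models (adjusted p = 0.397), and CYP1A1 by 0.84 (adjusted p = 0.257; 2.77 and called without ErlR replicate 2).

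The parental lines differed in 7 of the 9 tested members, where 31.6% of all genes were called. Cal27 had more AHR (log2 difference 2.88, standard error 0.25, adjusted p = 1.50e-06), CYP1A1 (3.715, standard error 0.77, adjusted p = 0.00136), CYP1B1 (4.68, standard error 0.51, adjusted p = 8.45e-06) and TIPARP (1.81, standard error 0.11, adjusted p = 8.32e-08). FaDu had more UGT1A6 (-3.20, standard error 0.43), ALDH1A3 (-1.89, standard error 0.28) and ALDH3A1 (-3.41, standard error 0.40). AHRR (-0.505, adjusted p = 0.176) and ALDH1A1 (-0.76, adjusted p = 0.182) did not pass. All 7 calls were kept under every alternative and without any 1 library. Per kilobase of exon, which adjusts for gene length only, ALDH1A3 had the highest level of the 10 in FaDu parental cells, 101 CPM per kilobase, followed by ALDH3A1 (29.6) and TIPARP (10.7). In Cal27 parental cells TIPARP (37.4) and ALDH1A3 (27.3) led, followed by AHR (13.6) and CYP1B1 (11.8), and the last 2 overlapped between libraries. The share of exon bases that also belong to other genes was 39.2% for AHR, 28.55% for ALDH1A3, 13.02% for CYP1B1 and 2.5% for ALDH3A1. Because the counting of reads on such bases is not given, the order of genes by this measure is uncertain.

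**Figure D4:**
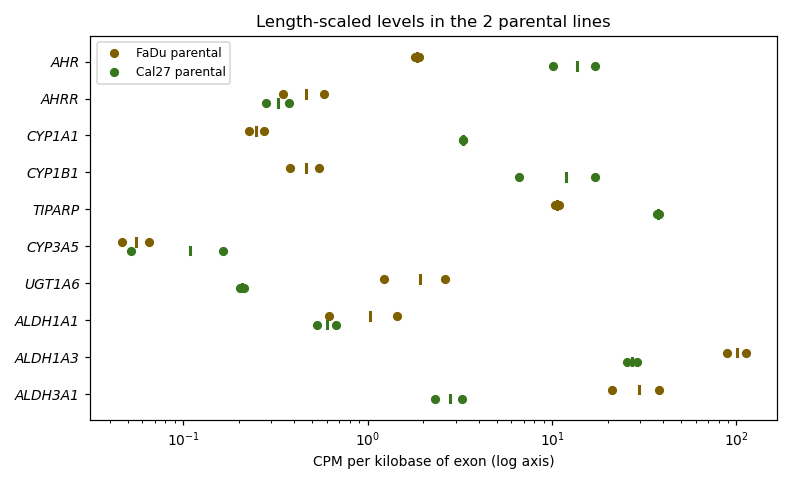
CPM per kilobase of exon (log axis) of the 10 genes in FaDu and Cal27 parental cells, with 1 point per library and a tick at the mean of the 2. AHR, CYP1A1, CYP1B1 and TIPARP lie higher in Cal27, and UGT1A6, ALDH1A3 and ALDH3A1 higher in FaDu.

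Across both lines, the afatinib effect on 2 of 9 members (AHRR and CYP1A1) differed between FaDu and Cal27, where 12.3% of all genes did, and the erlotinib effect on 4 of 9 (AHR, AHRR, CYP1B1 and ALDH1A3), where 10.9% did. All 4 erlotinib differences were positive as FaDu minus Cal27, as were 1220 of the 1765 called over all genes. For AHR the difference was 1.27 (standard error 0.34, adjusted p = 0.0225), a call lost when any of FaDu parental replicates 1 or 2, FaDu ErlR replicate 2, Cal27 parental replicate 2 or either Cal27 ErlR library was left out, at its smallest 0.83.

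The order of the 6 groups differed from member to member. AHR ran from Cal27 AfaR through Cal27 parental and Cal27 ErlR to the 3 FaDu groups, with overlap between the first 2 and between FaDu ErlR and FaDu AfaR. TIPARP ran from Cal27 ErlR over Cal27 AfaR and Cal27 parental to FaDu ErlR, FaDu AfaR and FaDu parental, with no neighbours overlapping. AHRR was highest in Cal27 AfaR and lowest in Cal27 ErlR, and of its neighbouring groups only FaDu parental and Cal27 parental overlapped. For CYP1B1 the 3 Cal27 groups came first, AfaR highest, with Cal27 ErlR overlapping FaDu AfaR.

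The 3 members with the widest range over groups were ALDH3A1, CYP1B1 and ALDH1A3. Among the 10558 genes that averaged 5 CPM or more, the patterns most like ALDH3A1 over the 12 libraries by Pearson correlation of log2(CPM + 1) included those of CDIPT (0.974) and PLBD1 (0.970). For CYP1B1 they included FBXO32 (0.985), and for ALDH1A3 they were RCC2 (0.985), NSMCE1 (0.983) and RNF138 (0.983). The 12 libraries fall into 2 lines, and any gene with a similar difference between FaDu and Cal27 correlates highly on this measure.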

How the data were processed

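Poly(A) RNA of 12 libraries, 2 each of parental, AfaR and ErlR cells of FaDu and of Cal27, was analysed. Per gene and ERCC spike-in, the authors deposited unnormalized read counts. Their processing notes name Trimmomatic 0.36, STAR 2.5.2b, featureCounts of Subread 1.5.2 and GRCh38, and how reads on overlapping genes or strands were counted is not given in the sources used here. The normalized tables per comparison were not used, and 0 columns were left without a sample. Symbols come from GENCODE on GRCh38, in which 56948 of 58051 identifiers were found.

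The test was edgeR 4.0.16 under R 4.3.3 (TMM, filterByExpr, glmQLFit and glmQLFTest, Benjamini-Hochberg adjustment over all tested genes) after a check on simulated data. One fit per line held 6 libraries (3 residual degrees of freedom, 15092 genes in FaDu and 15269 in Cal27), and a fit of all 12 (6 residual degrees of freedom, 16240 genes) gave the contrast of the parental lines and the interactions. Counts of FaDu libraries had a biological coefficient of variation of 14.5%, those of Cal27 15.25%. Depth is given with the results. Standard errors are the size of the log2 fold change over the square root of the quasi-likelihood F. They draw on the spread in all libraries of a fit, with 2 libraries per group. Spike-ins, 3.86% to 5.82% of counts, stayed out of the library sizes. Levels per kilobase use the exon length in the files.

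All 10 members are named. Lists are given by their counts, with up to 4 called genes of at least 1 CPM named per list and comparison by the size of the change. Some genes that the rule for similar patterns gives are not reported here. Members and lists were chosen with earlier results of these data known. ARNT, CYP1A2, CYP3A4, CYP3A7, NR1I2, POR and IDO1 were added for their role after their values were seen and are given as levels only. Alternatives were DESeq2 1.42.0, upper-quartile scaling, no filter on low counts, a replicate block, the fit of all 12 libraries, and leaving out each library in turn.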

Additional observations from a re-analysis of the deposited data

Results flagged for a closer look

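The effect of resistance on 6 member and drug combinations differed between the lines by a test of the interaction in edgeR's fit of all 12 libraries, and the values below are log2 differences, the effect in FaDu minus the effect in Cal27. For AfaR cells, AHRR had -2.84 and CYP1A1 had 3.61. For ErlR cells, AHR had 1.27, AHRR 3.12, CYP1B1 3.16 and ALDH1A3 2.31. In every one of the 6, the interaction passed an adjusted p of 0.05 and a log2 difference of 1 in size. The AHRR differences for both drugs and the ALDH1A3 difference were kept under every alternative and without any 1 library. The CYP1A1 difference was lost with DESeq2, without either FaDu parental library, without FaDu AfaR replicate 2 and without either Cal27 AfaR library, where it ranged from 3.20 to 3.74. The CYP1B1 difference was lost without FaDu ErlR replicate 1 (2.57, adjusted p = 0.0713). The AHR difference was lost without either FaDu parental library, FaDu ErlR replicate 2, Cal27 parental replicate 2 or either Cal27 ErlR library, where it ranged from 0.83 to 1.31. Groups of 2 libraries are too small for a check of single outlying samples.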

How the results depend on the processing

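Of 774 member values recomputed under an alternative, 0 calls changed direction, 709 kept their side of the limits, 36 lost a call and 29 gained one. Of 31 member calls over the 9 comparisons, 20 were kept throughout, 11 were lost at least once, and 4 of these were lost with all libraries in the fit (CYP1B1 in FaDu AfaR and in Cal27 AfaR, CYP1A1 for FaDu AfaR against ErlR and CYP1A1 for the AfaR interaction). With no filter on low counts, 4 members were called in FaDu AfaR and 4 for the AfaR interaction, against 2 and 2. Of all genes 1538 and 2476 were then called there, against 1122 and 2003, and 701 in FaDu ErlR, against 309. In the fit of all 12 libraries 1 member was called in FaDu AfaR and 1 for FaDu AfaR against ErlR, beside 1143 and 923 of all genes. With 1 library left out, which leaves an arm with a lone library assumed to vary like the others, the number of members called ranged from 0 to 4 in FaDu AfaR, 1 to 2 in FaDu ErlR, 0 to 3 for FaDu AfaR against ErlR, 2 to 5 in Cal27 AfaR and 1 to 2 for the AfaR interaction. The number of all genes called then ranged from 243 to 1045 in FaDu AfaR, 66 to 310 in FaDu ErlR and 343 to 914 for FaDu AfaR against ErlR. The 0 came without FaDu parental replicate 1 and without FaDu AfaR replicate 2 in the first of these, and without FaDu AfaR replicate 2 in the third. The cause of these shifts was not tested.

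Same-numbered libraries of 2 groups of a line deviated from their group means with correlations from -0.257 to 0.163 over genes. Correlations over all genes cannot show whether single genes share a replicate effect, and this was not tested. With a replicate block, members called numbered 2 for AfaR and 2 for ErlR in FaDu, and 3 for AfaR and 5 for ErlR in Cal27, with 7 between the parental lines. Of all genes 999, 239, 2888, 1936 and 5055 were then called, in the same order. With 2 libraries per group, members at a few counts (CYP3A5, UGT1A6 in Cal27, CYP1A1 in FaDu) are limited by depth.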
